A study of Homo sapiens with 8 samples.

Results

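MYC, MAX and 8 genes of the same transcription factor network were followed at the RNA level in prostate cancer cells in which the coactivators p300 and CBP had been blocked. The members were fixed by name as MYC, MAX, MXD1, MXD3, MXD4, MXI1, MNT, MLX, MGA and MLXIP, a rule that sets no threshold on a measured value. All 10 were found among the 19431 genes to which the transcripts of the deposited table could be assigned, and all 10 passed the filter on low values, which left 11871 genes for testing. They accounted for 55 listed isoforms, of which 34 passed the same filter.

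The cells were LNCaP-FGC, an established line of androgen-dependent human prostate carcinoma. Treatment lasted 24 h and was either DMSO as solvent control, I-CBP112, which occupies the bromodomains of p300 and CBP, A-485, which blocks their acetyltransferase site, or the 2 compounds combined. Each of these 4 groups held 2 RNA-seq libraries, numbered 1 and 2. No dose is stated in the sources used here. All libraries come from 1 cell line, and no label states separate cultures within a group, so the tests rest on a spread that may be technical.

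MYC is a basic helix-loop-helix leucine zipper protein that binds DNA when paired with MAX, and it raises the output of genes for ribosome assembly, metabolism and the cell cycle. The MXD proteins, MXI1, MNT and MGA compete for the same partner, and MXD, MXI1 and MNT dimers bring SIN3 and histone deacetylases to the sites that MYC would otherwise occupy. MLX forms a parallel branch with MLXIP (MondoA), which responds to sugar phosphates, and can also pair with MNT and some MXD proteins. In prostate carcinoma MYC is often raised in copy number or expression, and its RNA is short-lived.

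The letters that these dimers share as a preferred site are CACGTG, a palindrome that reads alike on both strands. They were searched in the RefSeq promoter table (GRCh38.p14), which gives 300 bases per gene, and 9 of the members matched an entry (MYC did not). CACGTG was present in 3 of the 9, against 7.43% of all promoters in the table (2030 of 27305). These 3 are shown because they belong to an MXD gene, to MNT and to MLX, so that a repressor branch and the MLX branch both hold the letters, which are in capitals. The MXD4 stretch is at chr4:2262300-2262359 on the minus strand, the MNT stretch at chr17:2401221-2401280 on the minus strand and the MLX stretch at chr17:42567023-42567082 on the plus strand. The match starts 238 bases before the transcription start in MXD4, 193 before it in MNT and 50 before it in MLX.
MXD4: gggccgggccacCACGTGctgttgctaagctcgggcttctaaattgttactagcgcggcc
MNT: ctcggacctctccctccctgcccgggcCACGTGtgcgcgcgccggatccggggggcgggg
MLX: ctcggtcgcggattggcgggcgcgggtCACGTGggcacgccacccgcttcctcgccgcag
A match is a description of the letters and not a measured binding site.

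The deposited values were FPKM of single transcripts, which count fragments relative to transcript length and to a library total. They were summed per gene and put on a common scale, and levels are given below as scaled FPKM, which can be compared between genes because they are per length. Estimated from the values, and with M standing for the usual mega, replicate 1 libraries carried 14.1 to 24.8 M fragments assigned to transcripts in use and replicate 2 libraries 3.83 to 12.3 M. The estimated library totals overlapped, at 17.9 to 32.1 M in replicate 1 and 16.4 to 28.3 M in replicate 2. The assigned share differed, at 77.3% to 83.6% in replicate 1 and 18.0% to 43.5% in replicate 2. The reason for this difference was not tested. Changes are log2 fold changes of scaled FPKM + 1 with their standard errors, tested with limma and adjusted by the Benjamini-Hochberg method over the 11871 genes, and a gene is called where adjusted p is under 0.05. The pseudocount of 1 understates changes of low genes. Of all genes, 0% were called with I-CBP112 (0 genes by limma, with 1317 at an unadjusted p under 0.05), 4.34% with A-485 (368 of 515 lower) and 10.4% with both (815 of 1233 lower). Scaled to the library totals alone, 161 of 539 genes called with A-485 and 489 of 1226 with both were lower. On the values as deposited the median gene stood 0.37 higher with A-485 and 0.61 higher with both on the log2 scale, and after scaling these medians were 0.02 and 0.05.

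The 11 luminal markers of the line were all expressed, and their summed level was 5152 to 6025 scaled FPKM with DMSO, 3723 to 3999 with I-CBP112, 2423 to 2797 with A-485 and 2113 to 2767 with both. KLK3 carried most of this fall, from 2191 and 2007 with DMSO to 51.6 and 50.5 with both, and 2 of the 11 stood above 0 in log2 fold change with both, FOXA1 among them at 222 and 223 against 198 and 169. Basal markers summed to at most 21.3, with TP63 and KRT15 under 1 in every library. ITGA6 had 3.95 to 8.07 in all 8 libraries, and KRT14 reached 1.43. KRT5 differed between replicates 1 and 2, at 0.22 and 6.72 with DMSO and 0.60 and 14.2 with I-CBP112. Among 6 stromal and blood markers COL1A2, DCN and PTPRC were under 1 throughout, and the list's sum went from 4.98 to 5.42 with DMSO to 13.6 to 17.8 with both, most of it COL1A1. Among 6 neuroendocrine markers CHGA, CHGB and INSM1 were under 1 throughout, and the sum went from 19.3 to 30.3 with DMSO to 75.8 to 79.0 with both, most of it ENO2. SYP was also higher, at 1.44 and 1.59 with DMSO and 4.87 and 4.61 with both. The part of these shifts in the results that follow was not tested.

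MYC fell with A-485 and fell further with both compounds, and it was the only member called in any comparison without a replicate block. Its level was 237 and 198 scaled FPKM in the DMSO libraries and 158 and 159 with I-CBP112. With A-485 it was 61.2 and 52.3, and with both compounds 19.1 and 14.7. The 4 groups do not overlap, and both libraries of every group stand in the order DMSO, I-CBP112, A-485, both. In bulk RNA, fewer cells with MYC transcripts and less MYC RNA per cell cannot be told apart.

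Against DMSO, the change of MYC with I-CBP112 was -0.45 ± 0.20 (95% interval -0.91 to 0.01, limma adjusted p = 0.458), and MYC ranked 1042 from the lowest of all genes tested. With A-485 it fell by 1.92 ± 0.20 on the log2 scale, 3.78-fold (limma adjusted p = 0.00499), and ranked 45 from the lowest. With both compounds it fell by 3.62 ± 0.20, 12.3-fold (limma adjusted p = 0.000158), and ranked 6 from the lowest. The 3 comparisons share the DMSO libraries. Within replicate number 1 the changes were -0.58, -1.94 and -3.56, and within replicate number 2 they were -0.32, -1.90 and -3.67, so each replicate alone gave the same order. Without A-485 replicate 2 the change with A-485 was -1.81 and was no longer called (limma adjusted p = 0.0523), while the call with both compounds held with each of the 8 libraries left out.

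MYC was also lower with both compounds than with either alone. Against I-CBP112 the change was -3.17 ± 0.20 (limma adjusted p = 0.000415), where 2.32% of genes were called. Against A-485 it was -1.70 ± 0.20 (limma adjusted p = 0.00937), where 0.826% of genes were called. The call against A-485 was lost without A-485 replicate 1, A-485 replicate 2 or the replicate 2 of both compounds, with changes from -1.81 to -1.52 and adjusted p from 0.0683 to 0.117. Between the single compounds, MYC was lower with A-485 than with I-CBP112 by -1.47 ± 0.20 (limma adjusted p = 0.0205), where 0.859% of genes were called. That last call was lost without either I-CBP112 library or either A-485 library (adjusted p from 0.0924 to 0.187), and also with no filter on low values or with scaling to library totals. With the block for the replicate number, MYC was the only member called in each of these 3 comparisons (limma adjusted p = 0.000192, 0.00297 and 0.00617), where 5.86%, 1.47% and 2.92% of genes were called.

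The change with both compounds was larger than the sum of the single changes by 1.25 on the log2 scale, but the interaction did not pass the test over all genes. Its value was -1.25 ± 0.28 (95% interval -1.89 to -0.60, limma adjusted p = 0.328). It was -1.05 within replicate number 1 and -1.44 within replicate number 2. No gene was called for the interaction by limma, where 1058 genes had an unadjusted p under 0.05, among them 1 member, MYC. Under the replicate block 0.0842% of genes were called for the interaction and no member was (MYC at adjusted p = 0.102).

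**Figure D1:**
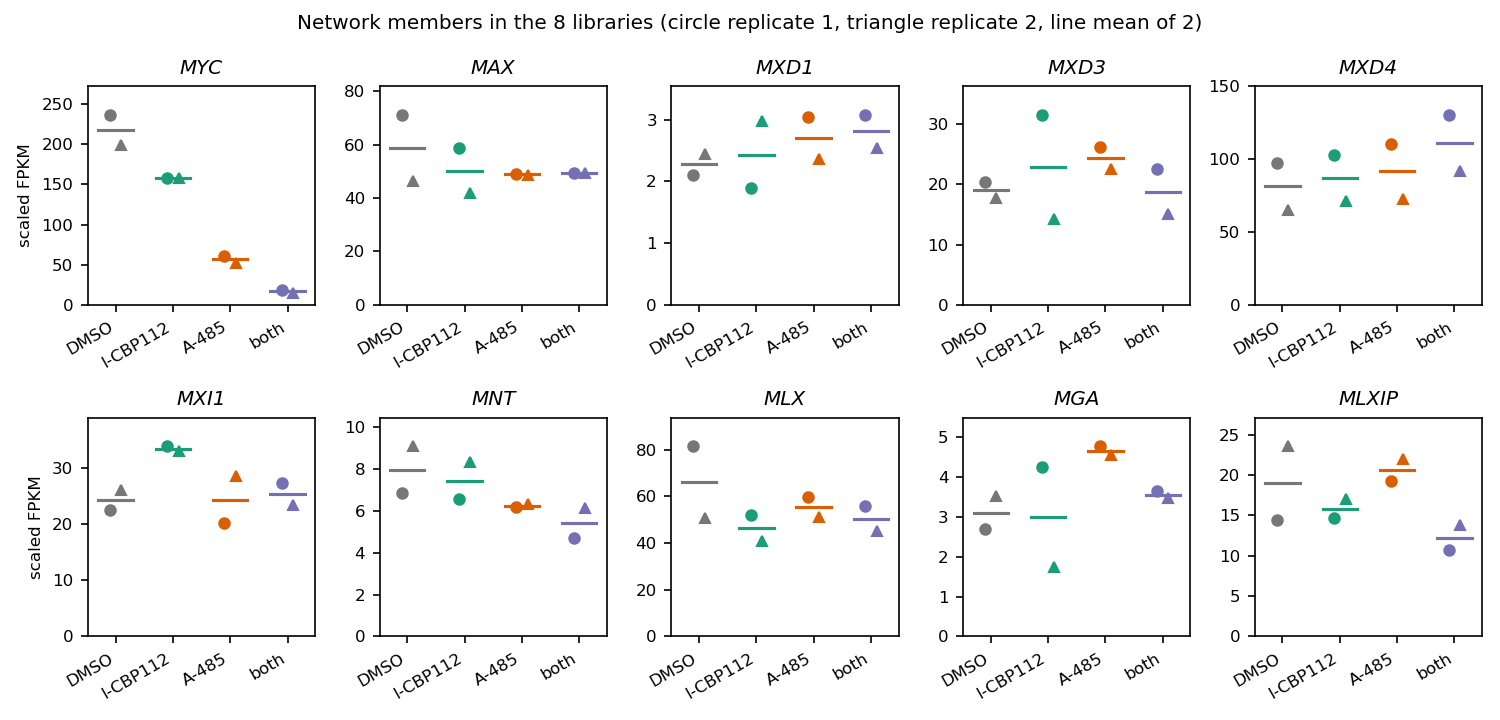
Level of each member in scaled FPKM (vertical axis, from 0) in the 4 groups (horizontal axis), with circles for replicate 1, triangles for replicate 2 and a line at their mean. MYC steps down from 237 and 198 with DMSO to 19.1 and 14.7 with both compounds, while the points of most other members overlap between groups.

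**Figure D2:**
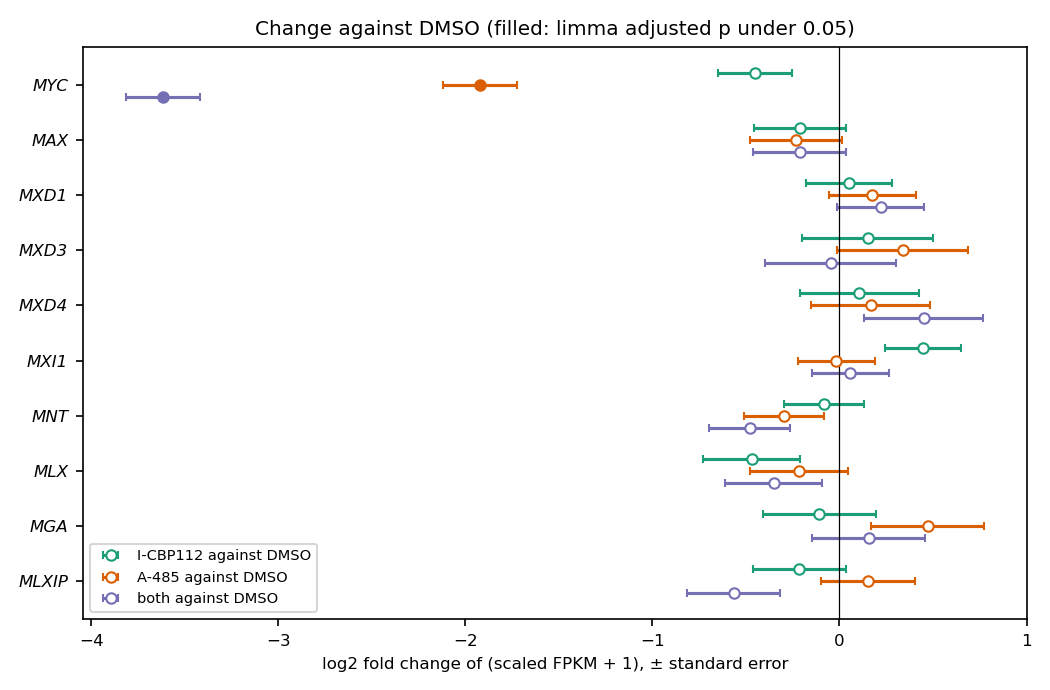
Log2 fold change of each member against DMSO (horizontal axis) with its standard error as a bar, filled where called. The filled points are MYC with A-485 at -1.92 and MYC with both compounds at -3.62, and the other 9 members lie between -0.57 and 0.47.

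The other 9 members changed far less in estimate, and none of them was called without a replicate block. Compared with DMSO, 10.4% of all genes were called for the pair of compounds, 4.34% for A-485 and 0% for I-CBP112. At such shares, the lack of a call among 9 genes does not set these members apart. Against DMSO their log2 fold changes ran from -0.47 to 0.45 with I-CBP112, from -0.30 to 0.47 with A-485 and from -0.57 to 0.45 with both compounds, with adjusted p from 0.189 upwards (limma). The median over the 10 members was -0.10, 0.07 and -0.13 in the same order, against 0.02, 0.02 and 0.05 for all genes. A missed threshold does not show that these genes stayed level, because their standard errors reached 0.35. Levels of the 2 groups did not overlap for 1 of these 9 in the I-CBP112 comparison (MXI1), for 3 in that of A-485 (MXD3, MNT and MGA) and for 3 in that of both compounds (MXD1, MNT and MLXIP). For all genes that share was 37.6%, 52.7% and 55.8%.

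MAX, the shared dimer partner, had 71.3 and 46.4 scaled FPKM with DMSO and 58.6 and 41.8 with I-CBP112. It had 49.2 and 48.5 with A-485 and 49.4 and 49.6 with both compounds. The DMSO libraries span the values of all the others except I-CBP112 replicate 2. Its change with both compounds was -0.21 ± 0.25 (95% interval -0.78 to 0.36, limma adjusted p = 0.609). The estimate was 0.01 when the library totals alone set the scale.

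MAX was read as 13 isoforms, of which MAX-204 carried 47.1% to 69.9% of the gene's summed FPKM and MAX-216 carried 9.0% to 26.3%. MAX-204 and MAX-205 encode the classic pair of MAX proteins with 151 and 160 codons, stop codon not counted, and MAX-205 held at most 9.6% of the gene. The coding sequences differ by 1 stretch of 27 bases, bases 38 to 64 counted from the start codon, that MAX-204 lacks. It is shown, in capitals between its flanks, because it is all that separates the coding sequences of this pair (GENCODE release 29).
MAX-205: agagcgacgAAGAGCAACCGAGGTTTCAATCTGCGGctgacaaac
None of the 9 tested MAX isoforms was called in any comparison, where of all transcripts 0.0219% were called in the I-CBP112 comparison, 0% with A-485, 0.335% with both, 0.11% with both against I-CBP112, 0% with both against A-485, 0.0094% with A-485 against I-CBP112 and 0.00313% for the interaction.

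MXD4 was the most abundant of the genes for repressive partners in every group, and the only one of them called, and only under the replicate block. MXD4 had 97.6 and 65.0 scaled FPKM in the DMSO libraries, 103 and 71.4 with I-CBP112, 110 and 72.9 with A-485 and 131 and 91.5 with both. The replicates of every group differ by more than the groups do, yet replicate 1 and replicate 2 each had their highest level with both compounds. Without the block the change with both was 0.45 ± 0.32 (limma adjusted p = 0.390), with the block adjusted p = 0.0294, where 20.5% of genes were called, and within replicate numbers it was 0.42 and 0.49.

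MXI1, a relative of the MXD proteins, had 22.6 and 26.2 scaled FPKM with DMSO and 33.9 and 33.0 with I-CBP112. It had 20.2 and 28.5 with A-485 and 27.4 and 23.5 with both. Both I-CBP112 libraries exceed every other library, and the remaining 3 groups overlap. The change with I-CBP112 was 0.45 ± 0.20 (95% interval -0.03 to 0.92, limma adjusted p = 0.467).

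The sum for MXI1 hides isoforms with different starts. MXI1-201, the longer form, opens with the stretch through which MXI1 binds SIN3, and MXI1-203, with 182 codons, opens with another first exon that lacks it. They share the last 452 coding bases. The first 60 coding bases of each are shown, with the letters after the shared start codon in capitals (GENCODE release 29).
MXI1-201: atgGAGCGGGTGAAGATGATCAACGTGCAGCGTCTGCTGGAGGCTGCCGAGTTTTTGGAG
MXI1-203: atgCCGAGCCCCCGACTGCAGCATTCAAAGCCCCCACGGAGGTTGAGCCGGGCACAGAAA
MXI1-201 had 6.30 and 4.05 scaled FPKM in the DMSO libraries, 18.4 and 8.51 with I-CBP112, 11.2 and 9.46 with A-485 and 14.9 and 12.7 with both. Every treated library exceeds both DMSO libraries. MXI1-203 had 12.4 and 15.4 with DMSO, 6.07 and 18.9 with I-CBP112, 4.35 and 12.1 with A-485 and 1.61 and 7.31 with both. Its replicates stand far apart in each treated group, and only with A-485 and with both are all values below DMSO. With both compounds the change of MXI1-201 was 1.28 ± 0.39 (limma adjusted p = 0.311 over 31904 transcripts) and that of MXI1-203 was -1.67 ± 0.77 (limma adjusted p = 0.498), so neither passed. As a share of the gene, MXI1-201 held 28.7% and 15.9% with DMSO, 53.2% and 26.6% with I-CBP112, 52.9% and 33.2% with A-485 and 52.8% and 54.0% with both. The I-CBP112 shares overlap with those of DMSO.

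MXD3, an MXD protein linked to dividing cells, had 20.4 and 17.8 scaled FPKM in the DMSO libraries, 31.6 and 14.2 with I-CBP112, 26.2 and 22.6 with A-485 and 22.5 and 15.0 with both. The A-485 libraries are above the DMSO ones, and the other groups overlap with DMSO. Its change with A-485 was 0.34 ± 0.35 (limma adjusted p = 0.578). MXD3 rests on 39 to 511 fragments per library and overlaps PRELID1 on the opposite strand and RAB24, and whether the counting used strand is not given in the sources used here.

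MXD1, a repressor that rises as many cell types differentiate, was the least abundant member, with 2.10 and 2.44 scaled FPKM in the DMSO libraries, 1.89 and 2.98 with I-CBP112, 3.05 and 2.37 with A-485 and 3.08 and 2.55 with both. Both libraries with the pair of compounds lie above both DMSO libraries, and the other groups overlap with DMSO. Its change with both was 0.22 ± 0.23 (limma adjusted p = 0.572). It rests on 37 to 299 fragments and overlaps SNRNP27.

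MNT, a repressor that is present in resting and dividing cells alike, had 6.85 and 9.11 scaled FPKM in the DMSO libraries, 6.58 and 8.33 with I-CBP112, 6.18 and 6.34 with A-485 and 4.72 and 6.13 with both. Both A-485 libraries and both libraries with the pair of compounds are below DMSO. Its change was -0.30 ± 0.21 with A-485 (limma adjusted p = 0.418) and -0.48 ± 0.21 with both (limma adjusted p = 0.194). On the values as deposited the estimates turned to 0.09 and 0.10, below the shift of the median gene.

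MGA, which pairs with MAX inside a polycomb-type repressor complex, had 2.69 and 3.53 scaled FPKM in the DMSO libraries, 4.26 and 1.74 with I-CBP112, 4.79 and 4.56 with A-485 and 3.65 and 3.47 with both. The 2 A-485 libraries are the highest of the 8. Its change with A-485 was 0.47 ± 0.30 (95% interval -0.22 to 1.17, limma adjusted p = 0.359). With I-CBP112 the estimated fragments, which derive from the same values, were 666 in replicate 1 and 68 in replicate 2. The cause of the wide spread there was not tested.

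In the MLX branch, MLX had 81.6 and 50.8 scaled FPKM in the DMSO libraries, 52.1 and 41.0 with I-CBP112, 59.7 and 51.0 with A-485 and 56.0 and 45.0 with both. DMSO replicate 1 stands apart from the other 7 libraries, and every treated group overlaps with DMSO. Its change was -0.47 ± 0.26 with I-CBP112 (limma adjusted p = 0.545) and -0.35 ± 0.26 with both (limma adjusted p = 0.414). MLX-203 carried 76.5% to 99.9% of the gene. MLX overlaps PSMC3IP on the opposite strand.

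MLXIP, the glucose-responsive partner of MLX, had 14.4 and 23.6 scaled FPKM in the DMSO libraries, 14.6 and 17.1 with I-CBP112, 19.3 and 22.0 with A-485 and 10.7 and 13.8 with both. The libraries with both compounds are the lowest of the 8. Its change was -0.57 ± 0.25 against DMSO (95% interval -1.15 to 0.01, limma adjusted p = 0.189) and -0.72 ± 0.25 against A-485 (95% interval -1.30 to -0.14, limma adjusted p = 0.311). With the replicate block adjusted p was 0.0523 and 0.0911. Neither passed, and in the unscaled values the first estimate was 0.11.

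Among the members MYC was first in level with DMSO and with I-CBP112, second with A-485 after MXD4, and 6th with both compounds. With DMSO the order was MYC, MXD4, MLX, MAX, MXI1, MXD3, MLXIP, MNT, MGA, MXD1, and the libraries of MXD4 and MLX, of MLX and MAX, and of MXD3 and MLXIP overlapped. With both compounds it was MXD4, MLX, MAX, MXI1, MXD3, MYC, MLXIP, MNT, MGA, MXD1, and MYC overlapped with MXD3 just above it. Among all genes tested MYC ranked 656 and 681 from the top with DMSO, 827 and 873 with I-CBP112, 1939 and 2211 with A-485, and 4910 and 5692 with both.

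Ratios within a library do not depend on how libraries are scaled. MYC held 60.9% and 61.5% of the summed FPKM of the 7 genes whose proteins pair with MAX (MYC, MXD1, MXD3, MXD4, MXI1, MNT and MGA) with DMSO, and 46.6% and 54.6% with I-CBP112. It held 26.4% and 27.6% with A-485, and 9.06% and 9.37% with both compounds. The 4 groups do not overlap. The sum of the other 6 genes was 152 and 124 scaled FPKM with DMSO and 192 and 142 with both. Those ranges overlap, while within each replicate number the sum was higher than with DMSO in all 3 treatments (181 and 132 with I-CBP112, 171 and 137 with A-485).

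**Figure D3:**
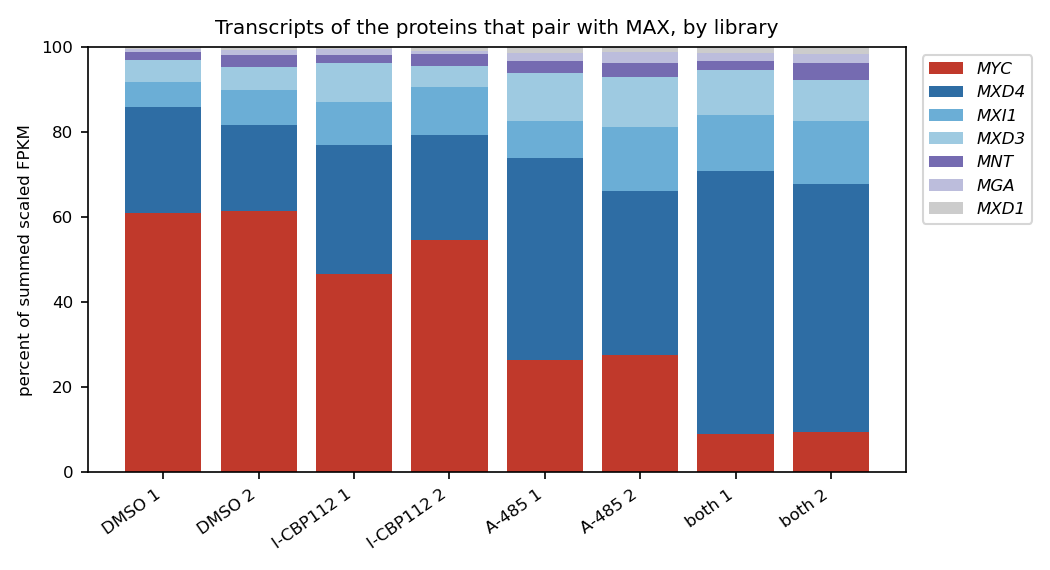
Share of each gene (vertical axis, percent) in the summed scaled FPKM of the 7 genes whose proteins pair with MAX, for each of the 8 libraries (horizontal axis). The MYC share goes from 60.9% and 61.5% with DMSO to 9.06% and 9.37% with both compounds, and MXD4 takes 61.9% and 58.3% there.

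Set against single partners, the ratio of MYC to MAX transcripts was 3.32 and 4.28 with DMSO, 2.70 and 3.79 with I-CBP112, 1.24 and 1.08 with A-485 and 0.387 and 0.296 with both. MYC transcripts exceeded those of MAX in all 6 libraries with DMSO, I-CBP112 or A-485, and fell below them in both libraries with the pair of compounds. The ratio of MYC to MXD4 was 2.43 and 3.05 with DMSO, 1.54 and 2.22 with I-CBP112, 0.556 and 0.718 with A-485 and 0.147 and 0.161 with both. MXD4 already exceeded MYC with A-485 alone. These are transcript levels, and protein was not measured.

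MYC was read mainly as 2 isoforms, MYC-205 with 52.3% to 62.5% and MYC-202 with 33.4% to 47.7% of the gene. MYC-205 had 130 and 117 scaled FPKM in the DMSO libraries, 90.6 and 90.9 with I-CBP112, 39.9 and 30.7 with A-485 and 11.7 and 7.70 with both. MYC-202 had 97.2 and 70.0, 66.1 and 57.6, 21.3 and 20.6, and 7.97 and 7.01 in the same order. Both went down the same steps with no overlap between groups. With both compounds MYC-202 fell by 3.30 ± 0.21 (limma adjusted p = 0.00938) and MYC-205 fell by 3.57 ± 0.24 (limma adjusted p = 0.0117), where 0.335% of transcripts were called. These were the 2 called of the 34 isoforms tested. Both calls held without I-CBP112 replicate 1, 1 was left without DMSO replicate 1 or I-CBP112 replicate 2, and 0 without any of the other 5 libraries. With A-485 the changes were -1.93 and -1.79 (limma adjusted p = 0.123 and 0.167), and 0 transcripts of any gene were called by limma (3 member isoforms had an unadjusted p under 0.05). Which of the MYC isoforms a read came from was the authors' assignment, and the 2 were estimated from shared sequence.

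**Figure D4:**
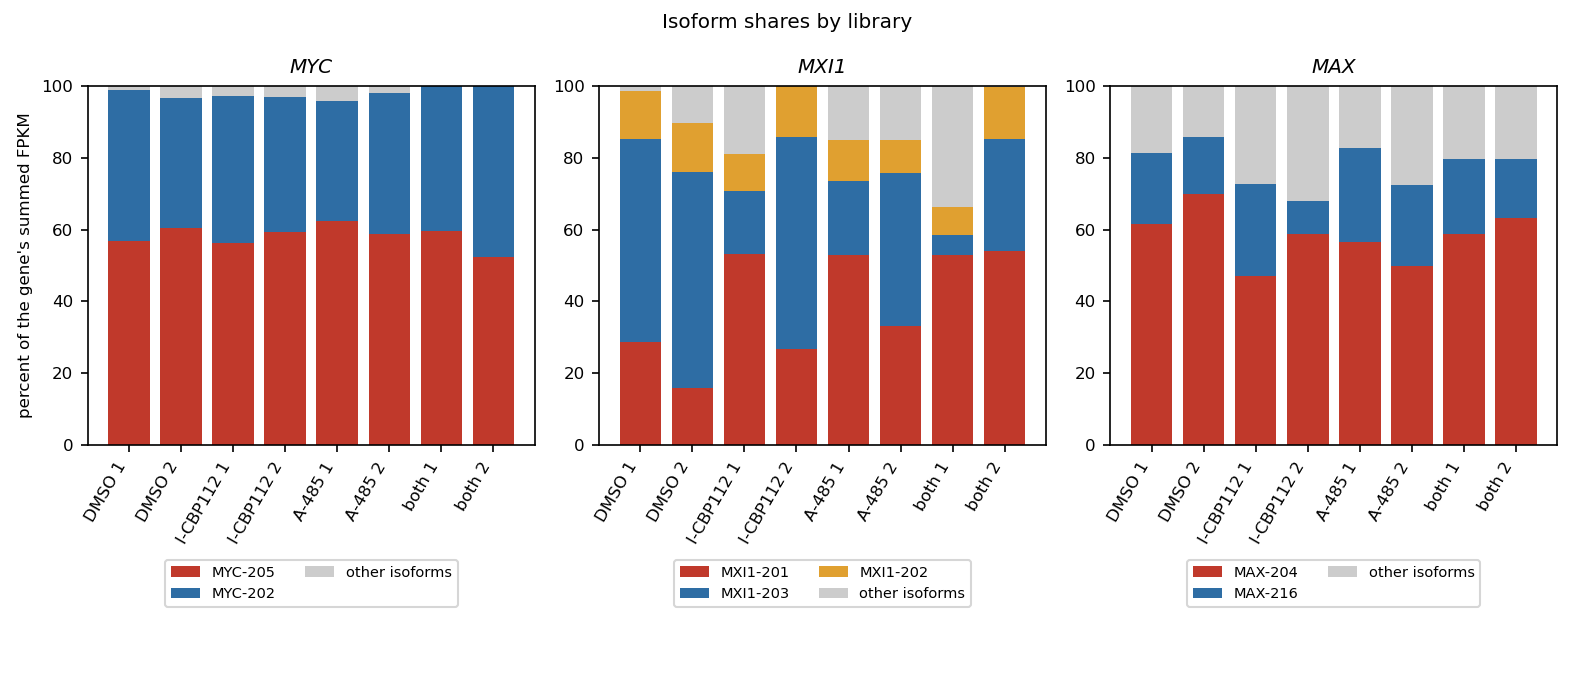
Share of the leading isoforms (vertical axis, percent of the gene's summed FPKM) of MYC, MXI1 and MAX in each of the 8 libraries (horizontal axis), with all other isoforms in grey. MYC-205 stays between 52.3% and 62.5%, whereas MXI1-201 ranges from 15.9% to 54.0%.

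Of the other MYC family genes, MYCN was listed at 0 in 7 of the 8 libraries and was under 0.1 in A-485 replicate 1. MYCL had 2.09 to 4.4 scaled FPKM in all 8. MLXIPL, the other Mondo protein, had 0.29 to 1.88 and was not called.

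Some of the genes that MYC is known to induce fell with A-485 and with both compounds. Tested directly between both compounds and A-485, 0 of 29 nucleolar genes and 1 of 28 metabolic and cell cycle genes were called, where 0.826% of all genes were called (limma, 5 and 10 at an unadjusted p under 0.05). Between both compounds and I-CBP112, 5 and 4 were called, all lower, where 2.32% of all genes were called. Between A-485 and I-CBP112, 0 and 1 were called, where 0.859% of all genes were (limma, 9 and 11 at an unadjusted p under 0.05). Of 29 tested genes for nucleolar and ribosome assembly factors, 0 were called with I-CBP112 (limma, 4 at an unadjusted p under 0.05), 5 fell with A-485 and 9 fell with both, and none rose. The shares of all genes called lower were 0%, 3.10% and 6.87%. The list's median change was -0.07, -0.44 and -0.69, against 0.02, 0.02 and 0.05 for all genes. Under the replicate block 12 and 15 of them were called lower with A-485 and with both, where 9.03% and 12% of all genes were. Scaled to library totals, 0 and 7 were called, and the medians were -0.14 and -0.54 against 0.31 and 0.25 for all genes. On the values as deposited the medians were -0.022 and -0.0095 against 0.37 and 0.61 for all genes, with 15 and 14 of 28 genes below 0.

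Of 28 tested metabolic and cell cycle targets, 0 were called with I-CBP112 (7 at an unadjusted p under 0.05, all lower), 6 fell with A-485 and 19 fell with both. The shares of all genes called lower were 0%, 3.10% and 6.87%. Under the replicate block 19 and 22 targets fell with A-485 and with both, where 9.03% and 12% of all genes did. The medians were -0.23, -0.74 and -1.04, against 0.02, 0.02 and 0.05 for all genes. Scaled to library totals, the medians with A-485 and with both were -0.42 and -0.82, against 0.31 and 0.25 for all genes. On the values as deposited they were -0.28 and -0.31 against 0.37 and 0.61, with 22 and 21 of 28 genes below 0. Both lists lost calls when libraries were left out. With A-485 the counts were 0 to 6 and 0 to 9. They were 0 in both lists without DMSO replicate 1 or A-485 replicate 2, and 0 and 1 without A-485 replicate 1. With both compounds they were 4 to 10 and 5 to 17, lowest without either library of the pair (4 and 4 in the first list, 5 and 7 in the second), and 6 and 11 without DMSO replicate 1.

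NOLC1, a nucleolar chaperone, had 117 and 105 scaled FPKM in the DMSO libraries, 85.6 and 81.5 with I-CBP112, 56.8 and 53.5 with A-485 and 43.8 and 40.9 with both. DKC1, the pseudouridine synthase of small nucleolar RNPs, had 84.7 and 82.9, 60.5 and 63.3, 40.0 and 41.2, and 32.0 and 36.2 in that order. Both show the descending order of MYC with no overlap between groups. They are named because they were called with a large change, so a gap to DMSO was partly set by that choice. Of all genes, 55.8% had no overlap between DMSO and the pair of compounds, in either direction. How many of all genes show the full order was not tested. With both compounds NOLC1 fell by 1.36 ± 0.16 (limma adjusted p = 0.0031) and DKC1 fell by 1.27 ± 0.16 (limma adjusted p = 0.00366), and both calls held with each library left out. GNL3, the nucleolar GTPase nucleostemin, fell by 1.37 ± 0.23, and NOP2, an rRNA methyltransferase, fell by 1.22 ± 0.24. The GNL3 call was lost without either library of the pair (adjusted p 0.069 and 0.0811). The NOP2 call was lost without DMSO replicate 1 or replicate 2 of the pair (adjusted p 0.0735 and 0.125).

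SLC1A5, a glutamine transporter, had 389 and 288 scaled FPKM in the DMSO libraries, 255 and 277 with I-CBP112, 85.2 and 41.1 with A-485 and 57.2 and 53.6 with both. Unlike MYC, its A-485 libraries lie on either side of the libraries with both compounds. With both it fell by 2.57 ± 0.32 (limma adjusted p = 0.00373). MCM5, a subunit of the replicative helicase, had 83.5 and 60.9 with DMSO, 49.0 and 48.7 with I-CBP112, 42.1 and 39.8 with A-485 and 16.8 and 15.1 with both. It fell by 2.10 ± 0.19 with both (limma adjusted p = 0.00108). SLC7A5, a transporter of large amino acids, fell by 1.96 ± 0.21 with both from a low level of 9.24 and 7.14 with DMSO. PYCR1, an enzyme of proline synthesis, fell by 2.28 ± 0.45 with both, a call lost without DMSO replicate 1 or either library of the pair (adjusted p from 0.0604 to 0.119).

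Genes reported as repressed by MYC did not move one way. Of 14 tested, 2 rose and 1 fell with A-485, and 3 rose and 2 fell with both, while 0 were called with I-CBP112 (3 at an unadjusted p under 0.05, limma). The shares of all genes called higher were 1.24% with A-485 and 3.52% with both. Under the replicate block 2 rose and 4 fell with A-485, where 4.71% of all genes were called higher, and 3 rose and 5 fell with both, where 8.54% were. With 1 library left out, the list's calls with A-485 came to 0 in each case but without DMSO replicate 2, where 2 rose and 0 fell. With both compounds 1 to 3 rose and 1 to 3 fell, 1 each without either library of the pair. HEXIM1, an inhibitor of the elongation kinase P-TEFb, had 15.8 and 19.5 scaled FPKM with DMSO and 69.5 and 73.7 with both, and rose by 1.97 ± 0.17 (limma adjusted p = 0.000819). Its change was 0.93 ± 0.17 with I-CBP112 alone (limma adjusted p = 0.218). With A-485 alone it was 0.91 ± 0.17 (limma adjusted p = 0.0301). MYC changed by -0.45 and -1.92 in the same order, so HEXIM1 rose alike where MYC did not fall alike. A link between HEXIM1 and MYC was not tested. CDKN1C, a cyclin-dependent kinase inhibitor, rose by 1.23 ± 0.23 with both from a level of 2.22 and 1.64, a call lost without DMSO replicate 2 or either library of the pair (adjusted p 0.0514 to 0.132). BTG1, an antiproliferative gene, fell by 1.34 ± 0.18 with both (limma adjusted p = 0.00422). The list's median with both was -0.35, and 0.31 on the values as deposited.

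**Figure D5:**
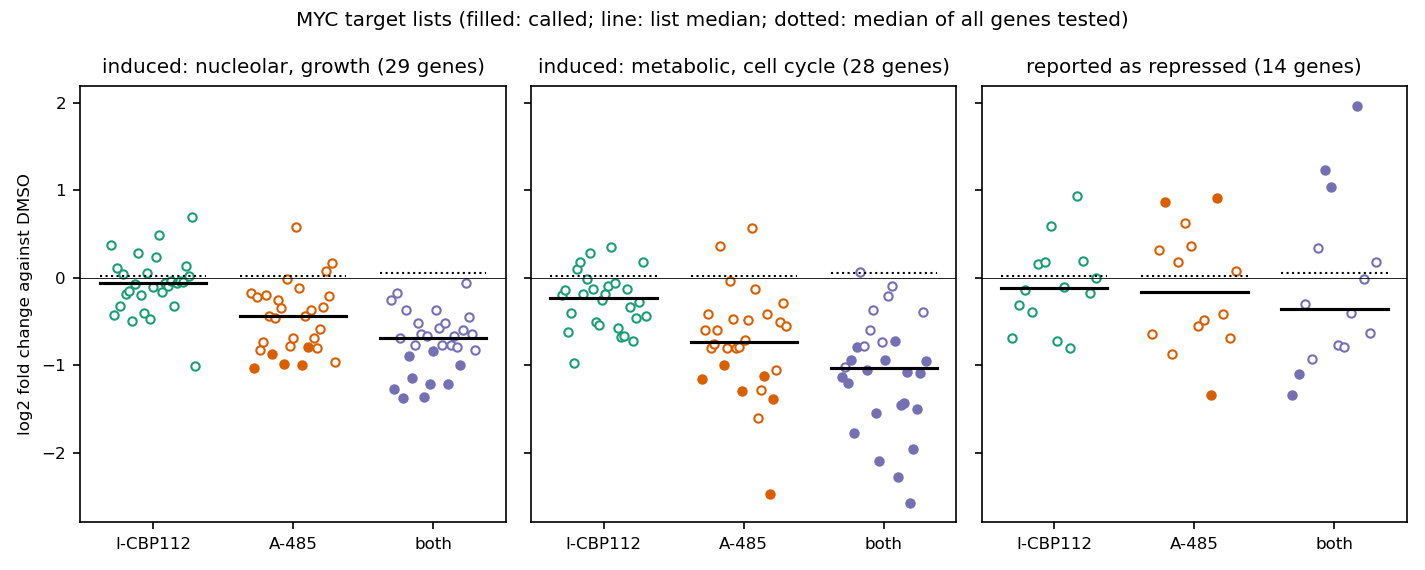
Log2 fold change against DMSO (vertical axis) of single genes in 3 lists of reported MYC targets for each treatment (horizontal axis), filled where called, with the list median as a line and the median of all genes dotted. The medians of the first 2 lists go from -0.07 and -0.23 with I-CBP112 to -0.69 and -1.04 with both compounds.

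Calls among the cofactors of the network were few, as they were among all genes. Of 19 MYC cofactors (the TRRAP and TIP60 complexes, P-TEFb and others), 0 were called with I-CBP112 or A-485 (limma, 0 and 4 at an unadjusted p under 0.05) and 1 fell with both, where 6.87% of all genes were called lower. With both compounds 15 of the 19 estimates were above 0, with a median of 0.19 against 0.05 for all genes. That gene was RUVBL1, an ATPase of the TIP60 and INO80 complexes, at -0.79 ± 0.20 (limma adjusted p = 0.0419). Its call held without DMSO replicate 2 and was lost without each of the other 7 libraries (adjusted p 0.0684 to 0.209). Of 12 corepressors of MXD and MNT dimers, of 10 partners of MGA and of 13 genes for MYC protein turnover, 0 were called in the 3 comparisons with DMSO. Among all genes 10.4% were called for the pair of compounds, 4.34% for A-485 and 0% for I-CBP112. Lists of 10 to 19 genes are too short to show fewer calls than that. At an unadjusted p under 0.05 stood 2, 2 and 2 corepressors, 1, 0 and 2 partners of MGA, and 1, 1 and 2 turnover genes (limma). Under the replicate block 2 cofactors and 1 corepressor rose and 1 cofactor fell with A-485. With both compounds, 2 cofactors, 1 partner of MGA and 1 turnover gene rose under it, and 2, 1 and 1 fell. Of all genes, the block called 4.71% higher and 9.03% lower with A-485, and 8.54% higher and 12% lower with both.

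Of 6 targets of MondoA and MLX, 0 were called with I-CBP112 or A-485 (limma, 1 and 2 at an unadjusted p under 0.05) and 1 fell with both, where the shares of all genes called lower were 0%, 3.1% and 6.87%. It was KLF10, a Krüppel-like factor, at -0.83 ± 0.19 (limma adjusted p = 0.0333), a call that held without DMSO replicate 1 and was lost without each of the other 7 libraries (adjusted p 0.0532 to 0.206).

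By a rule that ranked all tested genes, the 5 most like MYC over the 8 libraries included RAMP1 (Pearson r = 0.994), DUSP4 (r = 0.994), RASSF3 (r = 0.990) and TBC1D4 (r = 0.988). The 8 points share treatments and replicate numbers, and the r values are descriptions. By the distance between the 3 log2 fold changes against DMSO, the nearest 5 included KCNN2 (0.523), MCCC2 (0.584), RLN1 (0.599) and C1orf116 (0.680). Among the members r with MYC ran from -0.47 for MXD1 to 0.75 for MNT, and MAX stood at 0.30.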

How the data were processed

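RNA-seq was done on 8 LNCaP-FGC libraries, 2 per group, after 24 h. The authors deposited 1 table of 81591 transcripts. It is named as counts, but 78.3% of its values are not whole numbers, and low values of transcripts of at least 3000 bases scale with length, so the deposited values were read as FPKM and the count model of the design was replaced by limma on log2(scaled FPKM + 1). Per the submitters' processing notes, the tools were Cufflinks, STAR, DESeq2 and DESeq, and the build was hg19 (GRCh37), with no version or role. The deposited transcripts were matched by Ensembl identifier, without version, to GENCODE release 29 (74209, 91.0%) and summed per gene. Each library was scaled to its total and by a trimmed mean of log ratios (30% and 5% trimmed). Genes at 1 or more in at least 2 libraries entered limma (version 3.58.1, R 4.3.3) (trend, robust, 1 mean per group, 4 residual degrees of freedom), and transcripts likewise. The test was tried on simulated data with independent libraries, which does not cover the correlation of same-numbered libraries given below.

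Members and lists were chosen with earlier results of these data known. The genes named are the 10 members, the leading and the called isoforms, up to 4 called genes with the largest change per list, and the 5 genes most like MYC by each of 2 measures, of which some results are not reported here. Labels number the libraries 1 and 2 in every group and give each number a shared prefix whose meaning is not stated. Deviations of same-numbered libraries from their group means correlated at 0.146 to 0.424 in the 6 pairs of groups. The main tests fit the group only and are not paired. Values with the replicate number as a block come from an alternative fit and are given where they change a call. Alternatives were another pseudocount, no filter, 2 other scalings, the block and each library left out. The isoform lists and shares rest on the authors' assignment of reads. Estimated fragments are approximate, with 82.5% to 90% of low values within 0.1 of a whole fragment, and intervals cover the spread between libraries only.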

Additional observations from a re-analysis of the deposited data

How the results depend on the processing

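Of the 910 tested values that the alternatives gave for the 10 members in the 7 comparisons, 801 kept direction and side of the threshold, 15 lost a call (all of MYC), 1 gained one (MXD4 with both compounds, replicate block) and 93 changed sign, none of them a called result and 59 of them with 1 library left out. MYC kept its direction in all 91 of its values. Under the replicate block the members called with both compounds were 2, and all genes called were 1631 with A-485, 2436 with both, 696 with both against I-CBP112, 174 with both against A-485, 347 with A-485 against I-CBP112 and 10 for the interaction. The block changed no other call of a member. With no filter 0 members were called with A-485 against I-CBP112, and all genes called were 342, 161, 59 and 40 with A-485, with both against I-CBP112, with both against A-485 and with A-485 against I-CBP112. The MYC changes with I-CBP112, A-485 and both were -0.43, -1.43 and -2.81 as deposited, each with a standard error of 1.38. On library totals they were -0.33, -1.60 and -3.40 in the same order, each with a standard error of 0.22. Scaled to library totals, 0 members were called with A-485 against I-CBP112, and 141 genes with both against I-CBP112, 39 with A-485 against I-CBP112 and 4 for the interaction. On the values as deposited, whose library sums ran from 181486 to 808443, 0 members and 0 genes were called in any comparison, and 0 member isoforms in the 3 against DMSO (limma, 8 to 72 genes at an unadjusted p under 0.05).

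With 1 library left out, the lone library of its group was assumed to vary like the other groups. Members called were 0 to 1 with A-485, with both against A-485 and with A-485 against I-CBP112, and member isoforms called with both compounds 0 to 2. All genes called were 0 to 2 with I-CBP112, 14 to 1289 with A-485 (fewest without A-485 replicate 2, most without DMSO replicate 2), 269 to 1265 with both (fewest without replicate 1 of the pair), 44 to 349 with both against I-CBP112, 9 to 117 with both against A-485 and 5 to 116 with A-485 against I-CBP112. Taking the leading isoform of each gene only, chosen after seeing the data, the share of MYC among the partners of MAX was 54.0%, 42.6%, 21.2% and 6.19% with DMSO, I-CBP112, A-485 and both.

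The sign changes of uncalled members were as follows, as log2 fold changes. On library totals they were MNT 0.021 with I-CBP112, MAX 0.084, MXI1 0.29 and MLX 0.10 with A-485, MAX 0.0073 and MXD3 0.17 with both, MAX 0.10 with both against I-CBP112, MAX -0.076, MXD1 -0.026 and MXI1 -0.017 with both against A-485, MAX 0.18 with A-485 against I-CBP112 and MXD4 -0.036 for the interaction. On the values as deposited they were MGA 0.12 with I-CBP112, MAX 0.20, MXI1 0.39, MNT 0.086 and MLX 0.22 with A-485, and MAX 0.48, MXD3 0.59, MNT 0.10, MLX 0.35 and MLXIP 0.11 with both. Likewise MAX 0.66, MXD3 0.38, MXI1 0.28, MNT 0.14 and MLXIP 0.26 were found with both against I-CBP112, MNT 0.018 and MLX 0.13 with both against A-485, MAX 0.39 and MNT 0.12 with A-485 against I-CBP112, and MXD1 0.14 and MNT 0.054 for the interaction. With a pseudocount of 0.1 MAX was at 7.8e-05 with both against I-CBP112.

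Leaving out 1 library moved uncalled members across 0 in these ranges. With I-CBP112 they were MAX -0.52 to 0.090, MXD1 -0.18 to 0.28, MXD3 -0.40 to 0.70, MXD4 -0.19 to 0.39, MNT -0.27 to 0.10, MGA -0.58 to 0.36, MLXIP -0.55 to 0.12 and isoform MXI1-203 -1.06 to 0.43. With A-485 they were MAX -0.55 to 0.063, MXD4 -0.13 to 0.46, MXI1 -0.25 to 0.22, MLX -0.57 to 0.11 and MLXIP -0.20 to 0.48. With both they were MAX -0.52 to 0.087, MXD3 -0.32 to 0.23 and MXI1 -0.050 to 0.17. Against I-CBP112 both gave MAX -0.24 to 0.24, MXD1 -0.064 to 0.40, MXD3 -0.75 to 0.35, MLX -0.051 to 0.29 and MGA -0.21 to 0.73. Against A-485 both gave MXD1 -0.089 to 0.18, MXD4 -0.011 to 0.58, MXI1 -0.16 to 0.31 and MLX -0.29 to 0.020. A-485 against I-CBP112 gave MAX -0.26 to 0.22, MXD1 -0.11 to 0.36, MXD3 -0.36 to 0.74 and MXD4 -0.23 to 0.36. The interaction gave MAX -0.066 to 0.54, MXD1 -0.24 to 0.22, MXD3 -1.09 to 0.014, MXD4 -0.12 to 0.48, MNT -0.28 to 0.090 and MGA -0.68 to 0.26. The cause of these shifts was not tested. In 3 of the replicate 2 libraries MXD1 rests on 37 to 60 fragments and MXD3 on 39 to 81, and a change of 2 standard errors could miss the threshold over all genes, as MYC did with I-CBP112.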
